A study of Mus musculus with 4 samples.

Results

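The genes described here are 36 drivers and parts of mitosis and DNA replication, followed across the 4 sample groups of a mouse testis study. They were chosen by name, with earlier results of these data known. All 36 were among the 28595 genes counted. They comprised 8 cyclins and cyclin-dependent kinases, 4 mitotic kinases, 6 checkpoint and anaphase genes, 10 chromosome, kinetochore and spindle genes and 8 genes of replication and nucleotide supply. Testis was cut into 10 µm sections and profiled by photo-isolation chemistry (PIC), in which light releases a block on the DNA copied from RNA, so that a library forms where the tissue was irradiated. The groups were wild-type testis with the entire section irradiated, H3t knockout testis with the entire section irradiated, wild-type testis irradiated at Leydig cells only, and H3t knockout testis irradiated at Leydig cells only. H3t is a histone H3 variant of the testis, and the series design states that the deletion mice served as testes with disrupted spermatogenesis. Wild-type sample titles carry the word young, and no age was given for the knockout samples in the sources used here. Each group had 3 libraries. Those sources do not record whether they came from different animals, so every p-value speaks only to the variation among these libraries, which may be technical. Each group was deposited as 1 sample and 1 library pool, so pool and group cannot be told apart.

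A dividing cell copies its DNA in S phase and separates it in M phase. Cyclins switch on cyclin-dependent kinases in turn, the MCM helicase opens DNA for copying, and Aurora and Polo-like kinases build the spindle before the anaphase-promoting complex lets chromosomes part. In the testis these genes serve mitosis of spermatogonia, the premeiotic S phase and the meiotic divisions of spermatocytes, and some are loaded into meiotic cells well before those divisions. Adult Leydig cells, the steroid-making cells between the tubules, divide rarely.

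Many mitotic genes carry a cell cycle homology region (the motif TTTGAA, called CHR) and CCAAT boxes next to their start site, while many replication genes carry E2F motifs. The promoter sequences of 3 mitotic and 2 replication genes are shown because Ccnb2, Aurka and Plk1 had some of the steepest falls in knockout sections, Mcm3 was the only member called higher, and Mcm6 encodes another subunit of the same helicase. They are RefSeq windows of GRCm38.p6 from 250 bases before to 50 bases after the annotated start, written 5′ to 3′ on the gene's strand, with motif matches on either strand in capitals. Ccnb2 (chr9:70421505-70421804, minus strand), Aurka (chr2:172370521-172370820, minus strand) and Plk1 (chr7:122159185-122159484, plus strand) have TTTGAA and CCAAT in capitals. Mcm3 (chr1:20820263-20820562, minus strand) and Mcm6 (chr1:128359656-128359955, minus strand) have CCAAT and an E2F motif (TTTCCCGC, TTTGGCGC, TTTCGCGC or TTTGCCGC) in capitals, either as written or as the reverse complement.
Ccnb2: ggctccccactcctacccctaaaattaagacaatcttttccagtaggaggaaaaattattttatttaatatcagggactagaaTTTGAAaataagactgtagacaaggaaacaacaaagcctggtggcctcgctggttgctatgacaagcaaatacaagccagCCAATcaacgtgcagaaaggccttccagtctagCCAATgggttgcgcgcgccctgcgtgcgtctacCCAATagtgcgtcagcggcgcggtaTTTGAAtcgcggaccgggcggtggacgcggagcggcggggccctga
Aurka: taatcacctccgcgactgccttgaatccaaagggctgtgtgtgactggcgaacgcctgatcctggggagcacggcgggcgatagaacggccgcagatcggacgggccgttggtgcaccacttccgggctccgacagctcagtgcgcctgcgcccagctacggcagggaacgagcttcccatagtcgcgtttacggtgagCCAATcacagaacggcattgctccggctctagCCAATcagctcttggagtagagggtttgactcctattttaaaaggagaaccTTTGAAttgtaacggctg
Plk1: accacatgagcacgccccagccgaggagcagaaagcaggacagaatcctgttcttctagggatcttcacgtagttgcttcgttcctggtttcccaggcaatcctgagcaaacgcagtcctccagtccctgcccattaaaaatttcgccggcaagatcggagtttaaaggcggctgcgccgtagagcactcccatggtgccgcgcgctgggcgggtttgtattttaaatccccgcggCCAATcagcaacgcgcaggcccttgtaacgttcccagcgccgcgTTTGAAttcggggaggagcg
Mcm3: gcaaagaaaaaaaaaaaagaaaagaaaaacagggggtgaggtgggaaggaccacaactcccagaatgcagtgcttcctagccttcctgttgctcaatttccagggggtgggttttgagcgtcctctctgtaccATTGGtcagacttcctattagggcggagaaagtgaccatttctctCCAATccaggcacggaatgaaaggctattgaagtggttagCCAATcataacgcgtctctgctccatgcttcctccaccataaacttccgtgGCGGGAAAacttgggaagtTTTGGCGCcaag
Mcm6: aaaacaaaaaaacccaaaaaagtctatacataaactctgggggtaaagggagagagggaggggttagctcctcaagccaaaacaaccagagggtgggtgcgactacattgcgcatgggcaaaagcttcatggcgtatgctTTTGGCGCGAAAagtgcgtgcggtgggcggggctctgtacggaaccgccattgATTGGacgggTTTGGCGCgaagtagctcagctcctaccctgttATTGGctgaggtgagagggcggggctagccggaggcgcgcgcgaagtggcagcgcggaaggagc

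A promoter window was found for 30 of the 36 genes. TTTGAA was present in 13 of the 30 windows (43.3%), against 17.9% of all 32851 windows of this length. CCAAT was present in 24 of 30 (80%), against 37.4%. An E2F motif was present in 5 of 30 (16.7%), in Cdk1, Cdk2, Mcm3, Mcm5 and Mcm6, against 2.27%. These matches describe letters in a window and not bound sites.

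Entire-section libraries held 247539 to 566527 counts and Leydig-targeted libraries 5947 to 54882. A single count is therefore a large share of a shallow Leydig-targeted library. Levels are given in CPM, a gene's share of its library's counts scaled to a common total. Gene length was not used, and levels of different genes are not ranked. The targeted gene, listed as H3f4, had 1 count in wild-type section replicate 1 and 0 in the other 11 libraries, which is too low to check a label. Marker lists of testis cell types were summed beside the cell cycle genes. Spermatocyte markers ran from 6165 to 7523 CPM in wild-type and 221 to 294 CPM in knockout sections, and spermatid markers from 33530 to 62200 CPM and 117 to 954 CPM. Spermatogonia markers ran from 568 to 622 CPM in wild-type and 696 to 844 CPM in knockout sections. Of the 13 genes, Gfra1 and Nanos3 had no count in the knockouts. That sum is not split by gene here, so its higher level is not read as more RNA of spermatogonia. Leydig markers ran from 3323 to 6642 CPM and 36780 to 43630 CPM, and Sertoli markers from 3484 to 6711 CPM and 16270 to 17510 CPM. In a bulk section, fewer cells of a type and less of a transcript per cell cannot be told apart.

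All 36 genes together took 2077 ± 324 CPM (SD, n = 3) in wild-type sections and 1019 ± 243 CPM (SD, n = 3) in knockout sections. The 3 wild-type libraries, at 1741 to 2388 CPM, all lay above the 3 knockout libraries, at 740 to 1181 CPM. On counts summed over the group (2883 and 1245), the knockout level was 2.06-fold lower, with an exact 95% interval of 1.93 to 2.20 that covers counting error only, as do all counting intervals here. The difference was unequal among roles. Mitotic kinases stood at 386 ± 44.3 CPM and 38.8 ± 13.8 CPM (SD, n = 3), 9.75-fold lower (7.25 to 13.4). Chromosome, kinetochore and spindle genes stood at 682 ± 148 and 275 ± 54.8 CPM, cyclins and kinases at 672 ± 143 and 402 ± 138 CPM, and checkpoint and anaphase genes at 146 ± 4.28 and 65.3 ± 16.7 CPM. Replication genes stood at 191 ± 21.2 and 238 ± 59.3 CPM, and there the libraries of the 2 genotypes overlapped.

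**Figure D1:**
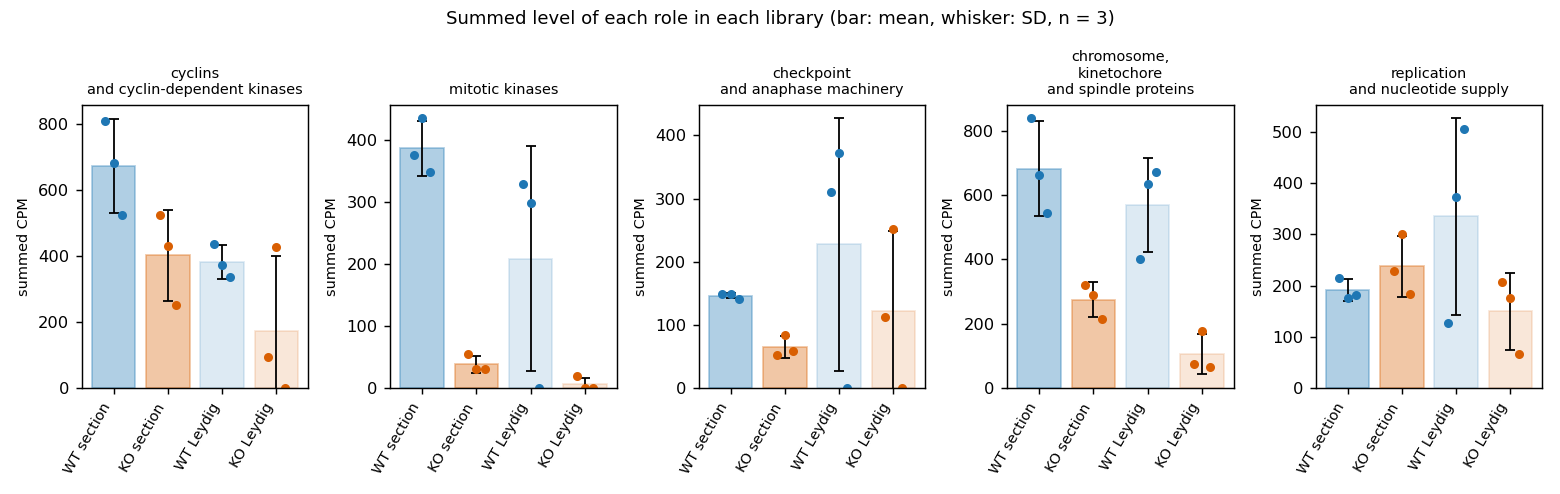
Summed CPM of the genes of each role (vertical axes, each from 0) in each of the 12 libraries, with bars for the group mean and whiskers for the SD (n = 3), shortened at 0 where they would pass it. Mitotic kinases average 386 CPM in wild-type and 38.8 CPM in knockout (KO) sections, while replication genes overlap between the same groups, at 191 and 238 CPM, an order that turns when they are set against Leydig or Sertoli marker counts.

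In the fit of all 12 libraries, 11 of the 36 genes passed the filter on low counts. Of these 11, 7 were lower and 0 higher in knockout than in wild-type sections at an adjusted p under 0.05 (edgeR's quasi-likelihood test, Benjamini-Hochberg over all genes tested), and DESeq2 gave the same counts. Among all 5182 genes tested, 39.1% were called lower and 22.6% higher by edgeR, and 33.9% and 31.7% by DESeq2. No further member had an unadjusted p under 0.05 in either direction. The median difference was -2.20 on the log2 scale over the 11 and -0.35 over all genes tested. The 7 genes were Aurka, Ccnb2, Plk1, Cenpe, Plk4, Top2a and Cenpf. Apart from Top2a, these were under the filter of 66.1 CPM in every knockout section and passed only through wild-type libraries. The share of members called is therefore not a test of the members as a set. The filter of that fit is set by the shallow Leydig-targeted libraries, so the 6 section libraries were also fitted alone, which took 24 members through the filter. In that fit 13 members were lower and 1, Mcm3, was higher, against a background of 36% of 7907 genes called lower and 30.2% called higher. At its filter of 23.0 CPM, Ccna1, Aurka, Plk1, Plk4, Cenpe, Bub1, Nusap1, Birc5 and Rrm2 were under it in every knockout library. Ccnb1 and Ccnb2 were under it in part of the knockout libraries and also needed wild-type libraries to pass. Mcm3 was under it in every wild-type library. These genes passed through the genotype in which they were higher. Without any filter all 36 could be tested, and 17 were lower and 0 higher against a background of 20.7% and 10.6%. The single gene results below are from the fit of the 6 section libraries unless another is named. Log2 estimates are given ± an SE worked back from the test, as the estimate's size divided by the square root of the F statistic.

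Ignoring any test, the 3 knockout libraries lay wholly below the 3 wild-type libraries for 18 of the 36 genes and wholly above for 3 (Cenpa, Mcm2 and Mcm3). Over the 25539 genes with a count in sections, the same was true of 21.0% and 19.0%.

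**Figure D2:**
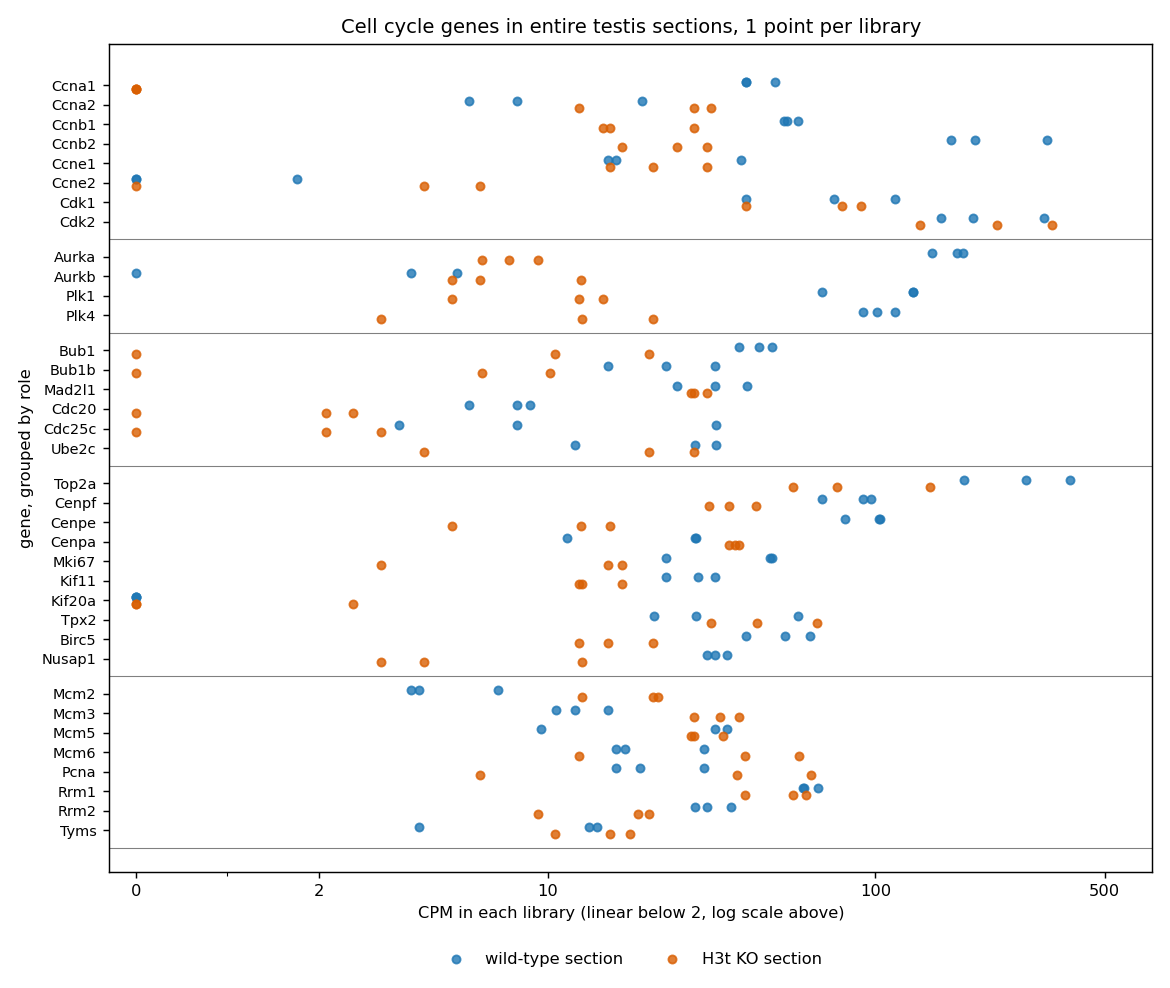
CPM of each of the 36 genes (vertical axis, grouped by role) in each entire-section library (horizontal axis, linear below 2 and logarithmic above), 1 point per library, blue for wild type and orange for H3t knockout. Ccna1 has 40.2 to 49.4 CPM in wild type and no count in any knockout library, Aurka is separated by over 100 CPM, and Mcm2 and Mcm3 are the replication genes whose knockout points all lie to the right.

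Among the cyclins, Ccna1 showed an all-or-none difference. Cyclin A1, the germline A-type cyclin needed for meiotic entry into M phase in male germ cells, was at 49.4, 40.2 and 40.4 CPM in the wild-type sections. In GENCODE vM21 (GRCm38) Ccna1 (ENSMUSG00000027793) spans chr3:55045469-55055501 on the minus strand, and 4931419H13Rik, with 11 counts against its 67, overlaps it on the other strand. Ccna1 had no count in the 3 knockout sections, from 59 counts against 0. The wild-type level was 17.5-fold above a floor of 3 counts over the knockout group (adjusted p = 6.17e-08). Folds against this floor leave out the counting error of the observed counts, so they are not lower bounds. The somatic A-type cyclin Ccna2 differed in the other direction on small counts. It was at 19.4, 5.74 and 8.08 CPM in wild-type and 31.5, 28.1 and 12.4 CPM in knockout sections, which overlapped. Its counts were 16 and 30, a knockout level 2.11-fold higher (1.11 to 4.14), and it passed only the fit with no filter, where its adjusted p was 0.369.

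Both B-type cyclins, the mitotic and meiotic partners of Cdk1, fell. Ccnb2 (ENSMUSG00000032218, chr9:70407692-70421547, minus strand) was at 201, 333 and 170 CPM in wild-type and 16.8, 30.6 and 24.9 CPM in knockout sections, with no overlap. It fell by 3.59 ± 0.39 on the log2 scale (adjusted p = 9.60e-09), and on summed counts the level was 10.5-fold lower (7.12 to 16.0). Ccnb1 was at 58.3, 53.6 and 52.5 CPM and at 14.7, 28.1 and 15.5 CPM, and fell by 1.76 ± 0.41 (adjusted p = 0.000473). A processed copy, Ccnb2-ps, had 4 counts in wild-type sections and 0 in knockouts, so it could take few reads of Ccnb2.

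The kinases that cyclins activate did not pass the test. Cdk1, the kinase of mitotic entry, was at 115, 74.6 and 40.4 CPM in wild-type and 90.4, 79.1 and 40.4 CPM in knockout sections. Its estimate was -0.42 ± 0.36 (adjusted p = 0.303). Cdk2, which works in S phase and in meiotic prophase, was at 327, 159 and 198 CPM and at 345, 235 and 137 CPM. The libraries overlapped fully, and the ratio of summed levels was 1.06 with a counting interval of 0.905 to 1.25. Its estimate was -0.17 ± 0.32 and changed sign when scaled by library size alone (0.07). Pmel lies across Cdk2 on the opposite strand and had 33 counts in all against 638 of Cdk2. The E-type cyclins of S phase entry were low: Ccne1 had 34 and 27 counts in the groups, and Ccne2 had 1 and 4.

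Apart from Ccna1, the steepest fall of all members tested was that of a mitotic kinase, Aurka (ENSMUSG00000027496, chr2:172356190-172370535, minus strand). Aurka, the Aurora kinase of spindle poles, was at 148, 186 and 178 CPM in wild-type sections and 6.31, 7.65 and 9.32 CPM in knockout sections, which is 3 counts in each knockout library. Every wild-type library was far above every knockout library. Aurka fell by 4.70 ± 0.42 (adjusted p = 3.44e-10) and by 4.98 ± 0.56 in the fit of all libraries. Plk1, the Polo-like kinase of mitotic entry and exit, was at 131, 130 and 68.7 CPM and at 14.7, 5.10 and 12.4 CPM, and fell by 3.60 ± 0.44 (adjusted p = 8.27e-08). Plk4, which starts centriole duplication, was at 91.8, 115 and 101 CPM and at 21.0, 12.8 and 3.11 CPM, and fell by 3.20 ± 0.43 (adjusted p = 3.85e-07). Aurkb, the kinase of the chromosomal passenger complex, had 5 counts in wild-type and 10 in knockout sections, a ratio of 2.25 whose interval of 0.700 to 8.38 includes 1. It was too shallow to place beside the other kinases.

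Of the checkpoint and anaphase genes, Bub1 was called lower and Mad2l1 and Ube2c were not. Bub1, a kinetochore checkpoint kinase, was at 44.1, 38.3 and 48.5 CPM in wild-type and 10.5, 20.4 and 0 CPM in knockout sections, and fell by 2.22 ± 0.51 (adjusted p = 0.000462). Mad2l1, the checkpoint protein that holds back the anaphase-promoting complex, was at 40.6, 24.9 and 32.3 CPM and at 27.3, 30.6 and 28.0 CPM. Its knockout libraries lay inside the wild-type range, with an estimate of -0.44 ± 0.40 (adjusted p = 0.338). Ube2c, the ubiquitin carrier of that complex, was at 28.2, 32.5 and 12.1 CPM and at 4.20, 20.4 and 28.0 CPM. The groups overlapped, with an estimate of -0.94 ± 0.50 (adjusted p = 0.104), and it fell by 1.58 (adjusted p = 0.0180) without knockout section replicate 3. Bub1b, Cdc20 and Cdc25c did not pass the filter. In the fit with no filter Bub1b (29 and 7 counts, adjusted p = 0.00294) and Cdc25c, a phosphatase that activates Cdk1 (21 and 2 counts, adjusted p = 0.000746), were lower. Of the 21 wild-type counts of Cdc25c, 17 were in replicate 2. Cdc20, the anaphase activator, had 10 and 2 counts and an adjusted p of 0.0853 there. Elovl1 overlaps Cdc20 on the opposite strand with 70 counts against its 12, Gm3550 overlaps Cdc25c with 82 against 26, and whether counting used strand is not stated by the sources used here.

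Of the 7 chromosome, kinetochore and spindle genes that passed the filter, 5 fell (Cenpe, Nusap1, Birc5, Top2a and Cenpf) and Cenpa and Tpx2 were not called. Top2a, the topoisomerase that untangles sister chromatids, was at 394, 289 and 186 CPM in wild-type and 147, 76.5 and 55.9 CPM in knockout sections. The groups did not overlap, and Top2a fell by 1.87 ± 0.34 (adjusted p = 3.34e-05). Cenpe, the kinetochore motor, was at 102, 103 and 80.8 CPM and at 12.6, 5.10 and 15.5 CPM. It fell by 3.36 ± 0.43 (adjusted p = 1.69e-07), the steepest estimate of this role. Cenpf, a large kinetochore protein, was at 97.1, 91.8 and 68.7 CPM and at 35.7, 43.4 and 31.1 CPM, and fell by 1.502 ± 0.34 (adjusted p = 0.000407). Nusap1, which bundles spindle microtubules, was at 35.3, 30.6 and 32.3 CPM and at 4.20, 12.8 and 3.11 CPM, and fell by 2.49 ± 0.49 (adjusted p = 8.31e-05). Oip5 overlaps Nusap1 on the opposite strand with 47 counts against 58. Birc5 (survivin, of the passenger complex) was at 53.0, 63.1 and 40.4 CPM and at 21.0, 15.3 and 12.4 CPM, and fell by 1.93 ± 0.42 (adjusted p = 0.000268).

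Other genes of this role differed less or were shallower. Mki67, the nuclear protein used as a proliferation marker, had 51 and 15 counts, and the spindle motor Kif11 had 36 and 17. Neither passed the filter, and both were lower in the fit with no filter (adjusted p = 0.000819 and 0.0476). Cenpa, the centromeric histone H3 variant, was at 28.2, 11.5 and 28.3 CPM in wild-type and 35.7, 38.3 and 37.3 CPM in knockout sections. The 3 knockout libraries were above the 3 wild-type libraries, but the estimate of 0.51 ± 0.42 was not called (adjusted p = 0.298) and was -2.14 when scaled to Leydig markers. Tpx2, which activates Aurora A on the spindle, was at 58.3, 21.1 and 28.3 CPM and at 31.5, 66.3 and 43.5 CPM, which overlapped, at 0.09 ± 0.41 (adjusted p = 0.865). Kif20a, a motor of the central spindle, had 1 count in all 12 libraries.

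**Figure D3:**
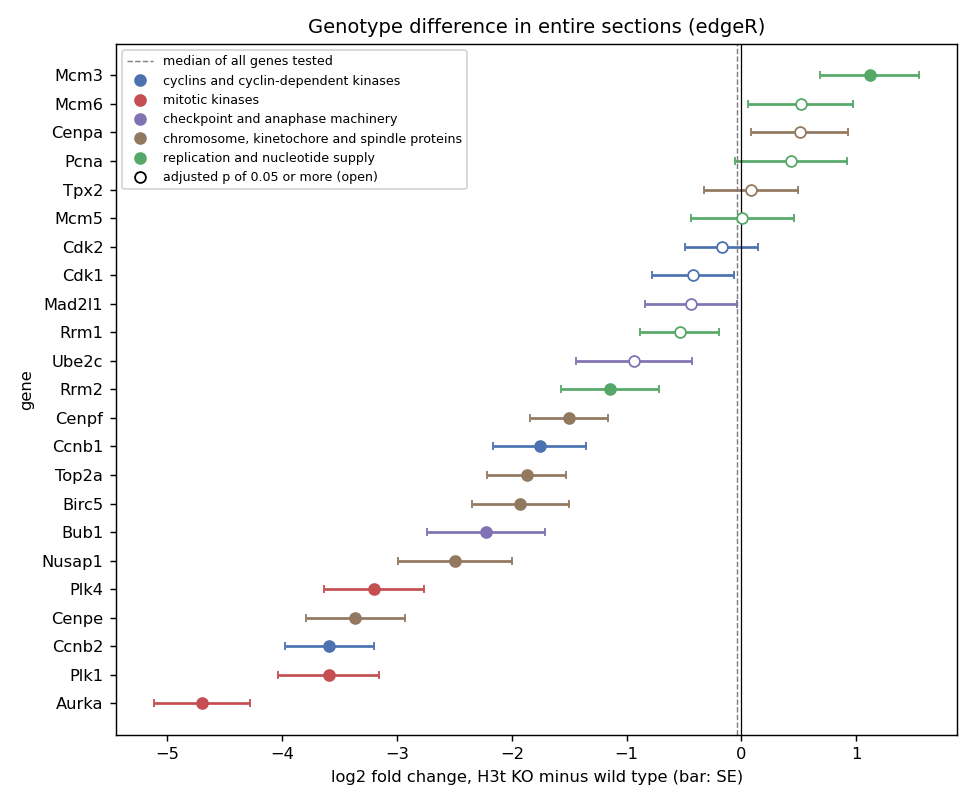
Log2 fold change, knockout minus wild type, of 23 members that passed the filter in the fit of the 6 entire-section libraries (horizontal axis; bars are the SE), coloured by role, filled where the adjusted p was under 0.05. Ccna1 is left out because its knockout libraries had no count. Aurka lies lowest at -4.70, most mitotic genes lie left of the median of all genes (dashed, -0.04), and the MCM genes and Pcna lie at or right of 0 under this scaling, while all of them are below 0 when scaled to Leydig or Sertoli markers.

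Replication genes were spread around 0 rather than below it under TMM scaling (edgeR's trimmed mean method). The MCM helicase subunits Mcm2 and Mcm3 had all 3 knockout libraries above all 3 wild-type libraries. Mcm3 (ENSMUSG00000041859, chr1:20802968-20820312, minus strand) was at 10.6, 15.3 and 12.1 CPM in wild-type and 33.6, 38.3 and 28.0 CPM in knockout sections. It rose by 1.12 ± 0.43 (adjusted p = 0.0244), while its estimate was -1.57 when scaled to Leydig markers and -0.34 when scaled to Sertoli markers. DESeq2 gave an adjusted p of 0.103 for Mcm3 and the fit with no filter 0.148. Leaving out any library except wild-type replicate 2 also ended the call, with adjusted p from 0.0533 without knockout replicate 2 to 0.185 without wild-type replicate 1. Mcm2 was at 7.06, 3.83 and 4.04 CPM and at 21.0, 12.8 and 21.8 CPM, from 7 and 22 counts. That is 3.53-fold higher by counting error alone (1.46 to 9.79), but it had an adjusted p of 0.112 in the fit with no filter.

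Mcm5 and Mcm6, of the same helicase, overlapped between genotypes. Mcm5 was at 35.3, 9.57 and 32.3 CPM and at 27.3, 28.1 and 34.2 CPM, with an estimate of 0.01 ± 0.45 (adjusted p = 0.988). Mcm6 was at 30.0, 17.2 and 16.2 CPM and at 39.9, 58.7 and 12.4 CPM, with an estimate of 0.52 ± 0.46 (adjusted p = 0.327). Knockout replicate 3 was its lowest library of all 6. The same was seen for Pcna, the sliding clamp of DNA polymerases, at 30.0, 19.1 and 16.2 CPM in wild-type and 37.8, 63.8 and 6.22 CPM in knockout sections (0.43 ± 0.49, adjusted p = 0.450). A processed copy, Pcna-ps2, had 7 and 15 counts beside the 31 and 45 of Pcna, so reads may be split between them.

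Among the enzymes that supply deoxynucleotides only Rrm2 was called, and differences between these enzymes were not tested. Rrm2, the S phase subunit of ribonucleotide reductase, was at 28.2, 30.6 and 36.4 CPM in wild-type and 18.9, 20.4 and 9.32 CPM in knockout sections, with no overlap. It fell by 1.14 ± 0.43 (adjusted p = 0.0210), with adjusted p = 0.0808 by DESeq2, 0.0775 when scaled by library size alone and 0.0569 without wild-type replicate 2. Rrm1, the partner subunit, was at 60.01, 67.0 and 60.6 CPM and at 39.9, 61.2 and 55.9 CPM, with an estimate of -0.54 ± 0.34 (adjusted p = 0.172). Tyms, thymidylate synthase, had 16 and 17 counts, and its ratio of 1.19 had an interval of 0.567 to 2.53.

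The promoter motifs printed above were counted by outcome as a description. Of the 13 members called lower, all had a window, 5 of which held TTTGAA (Aurka, Ccnb2, Cenpf, Plk1 and Top2a), 10 held CCAAT and 0 held an E2F motif. Of the 10 members tested and not called, 9 had a window, 3 of which held TTTGAA, 8 held CCAAT and 4 held an E2F motif (Cdk1, Cdk2, Mcm5 and Mcm6). Mcm3 held CCAAT and E2F motifs and no TTTGAA.

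CPM depends on what else is in the section, and the somatic marker shares given above were larger in knockouts. Per 1000 Leydig marker counts, the 36 genes stood at 268 to 633 in wild-type and 16.95 to 30.85 in knockout sections. Per 1000 Sertoli marker counts they stood at 322 to 604 and 42.2 to 70.6. Both denominators widened the gap. Scaled to Leydig markers, all 24 members tested in the section fit were lower, against a background of 85.2% lower and 0.354% higher. Scaled to Sertoli markers, 20 of 24 were lower and 0 higher, against 62.3% and 4.43%. The replication genes then stood at 28.0 to 53.0 per 1000 Leydig marker counts in wild-type and 4.20 to 8.18 in knockout sections. Their direction therefore depended on the denominator, while the 13 genes called lower kept theirs under every scaling run. For those genes the marker scales could not have turned the direction. Against TMM they shift the median of all genes by -2.72 (Leydig) and -1.48 (Sertoli), toward lower in knockouts.

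**Figure D4:**
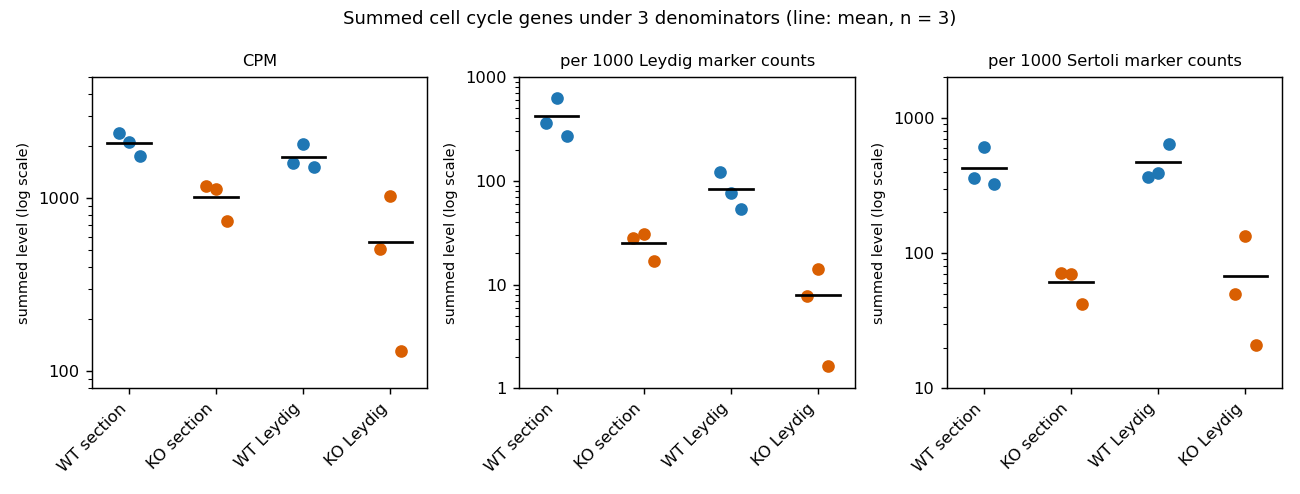
Summed level of the 36 genes in each library under 3 denominators (logarithmic vertical axes; CPM, per 1000 Leydig marker counts and per 1000 Sertoli marker counts), with lines for the group means (n = 3). Wild-type sections lie above knockout sections under each, at 2077 against 1019 CPM, 420 against 25.3 per 1000 Leydig marker counts and 427 against 60.9 per 1000 Sertoli marker counts.

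In libraries irradiated at Leydig cells the cell cycle genes were sparse. The group sums were 152 counts over 87682 in wild type, with 28 of the 36 genes seen, and 70 counts over 107899 in knockouts, with 13 of 36 seen. A gene with no count could have been at up to 34.2 CPM in wild type or 27.8 CPM in knockouts, taking 3 counts over the group. Rrm1 was the only one of the 36 with a count in every library of the study. Summed levels were 1513 to 2048 CPM in wild type and 132 to 1033 CPM in knockouts, with no overlap, and were 2.67-fold lower on summed counts (2 to 3.60). Germ cell markers were present in the wild-type libraries of this kind. Spermatocyte markers stood at 4708 to 7270 CPM and spermatid markers at 19670 to 33470 CPM in wild type, against 132 to 252 CPM and 0 to 151 CPM in knockouts, with 7 of 14 and 11 of 18 markers at 0 in knockouts. Leydig markers stood at 13190 to 28590 CPM and 65850 to 80810 CPM and spermatogonia markers at 168 to 447 CPM and 906 to 1052 CPM. Of the 13 spermatogonia genes, 6 had no count in wild type. In knockouts 7 had none (Dmrt1, Dmrtb1, Lin28a, Nanos3, Sohlh1, Sohlh2 and Stra8), so these sums rest on the others. Levels of the single markers are not given here, so the higher sum in knockouts is not read as more RNA of spermatogonia. The part of germ cell RNA in the cell cycle counts was not tested.

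In the fit of all 12 libraries, 5 of the 11 members tested were lower and 0 higher in knockout Leydig-targeted libraries (edgeR's quasi-likelihood test). Among all genes tested, 20.9% were called lower and 7.55% higher. Of the members called, Aurka, Ccnb2, Plk1 and Plk4 were under the filter of 66.1 CPM in every knockout library of either region. They passed only through wild-type libraries, so the share of members called is not a test of the members as a set. At an unadjusted p under 0.05 the counts of members were 6 and 0, and DESeq2 called 4 and 0 against 17.2% and 10.5% of all genes. When the 6 Leydig-targeted libraries were fitted alone, 418 genes passed the filter and 0 members were among them. In the libraries alone, the groups did not overlap for 2 members, Ccnb2 and Top2a, which were lower in knockouts. For the 15938 genes with a count there, 4.17% were wholly lower and 6.33% wholly higher.

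Ccnb2 had 13, 2 and 1 counts in the wild-type libraries and 0 in all 3 knockouts. Its wild-type level was 6.56-fold above the floor of 3 counts over the knockout group (adjusted p = 0.000645). Leaving out wild-type replicate 1, which held 13 of its 16 counts, gave an adjusted p of 0.0611. Top2a had 9, 7 and 1 counts in the wild-type libraries, against 0, 4 and 0, 5.23-fold lower (1.71 to 21.4, adjusted p = 0.0287). Its adjusted p was 0.0569 by DESeq2, and 0.0596, 0.09155 and 0.217 without wild-type replicate 1, wild-type replicate 2 and knockout replicate 1. Plk4 had 4, 6 and 0 counts against 1, 0 and 0, or 12.3-fold lower (1.75 to 534, adjusted p = 0.0198), with adjusted p = 0.166 without wild-type replicate 2 and 0.0888 without knockout replicate 2.

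Plk1 had 8 counts, all in wild-type replicate 1, and none in knockouts, 3.28-fold above the floor of 3 counts (adjusted p = 0.0109). With wild-type replicate 1 left out no count remained to test, and without knockout replicate 1 the adjusted p was 0.0608. Aurka had 5, 1 and 0 counts against none, 2.46-fold above that floor (adjusted p = 0.0272). Its adjusted p was 0.308 without wild-type replicate 1, and 0.101 and 0.0779 without knockout replicates 1 and 2. Across the leave-one-out fits 1 to 5 of these calls remained in number, and the fit with no filter called 1 of 36, Ccnb2, against 1.66% lower and 1.47% higher of all genes. Each of the 5 was also called lower in entire sections, but in the same fit, with its shared filter and estimate of spread. The Leydig-targeted libraries alone took none of them through the filter, so the calls of both regions are not independent.

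Other members at 0 in every knockout Leydig-targeted library had 10 wild-type counts at most. Bub1 (8, 2 and 0 counts) and Ube2c (6, 4 and 0 counts) were 4.10-fold above the floor of 3 counts and did not pass the filter. Ccna1 did not pass it either, and its 8 counts, a level 3.28-fold above that floor, were all in wild-type replicate 1. Without that library no count of Ccna1 and 2 counts of Bub1 remained, under the floor of 3, and no fold could be given. The proliferation marker Mki67 had 2 counts in wild type and 0 in knockouts, which allows up to 34.19 CPM. Mcm2 had 0 and 2 counts, Pcna 4 and 5, Mcm6 2 and 3, and Rrm1 11 and 9. None of these distinguished the genotypes at this depth.

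Mad2l1 and Cdk2 had more counts in knockout than in wild-type Leydig-targeted libraries. Mad2l1 had 0, 3 and 0 counts in the wild-type libraries, against 6, 10 and 0, a ratio of 4.33 (1.24 to 23.2) that was not called (adjusted p = 0.169). It was called without wild-type replicate 2 (adjusted p = 0.0234). Cdk2 had 2, 2 and 0 counts against 4, 13 and 0, a ratio of 3.45 (1.13 to 14.1) with an adjusted p of 0.233 and an estimate of -0.18 when scaled to Leydig markers. In both genes knockout replicate 2 held most of the counts, and the groups overlapped.

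**Figure D5:**
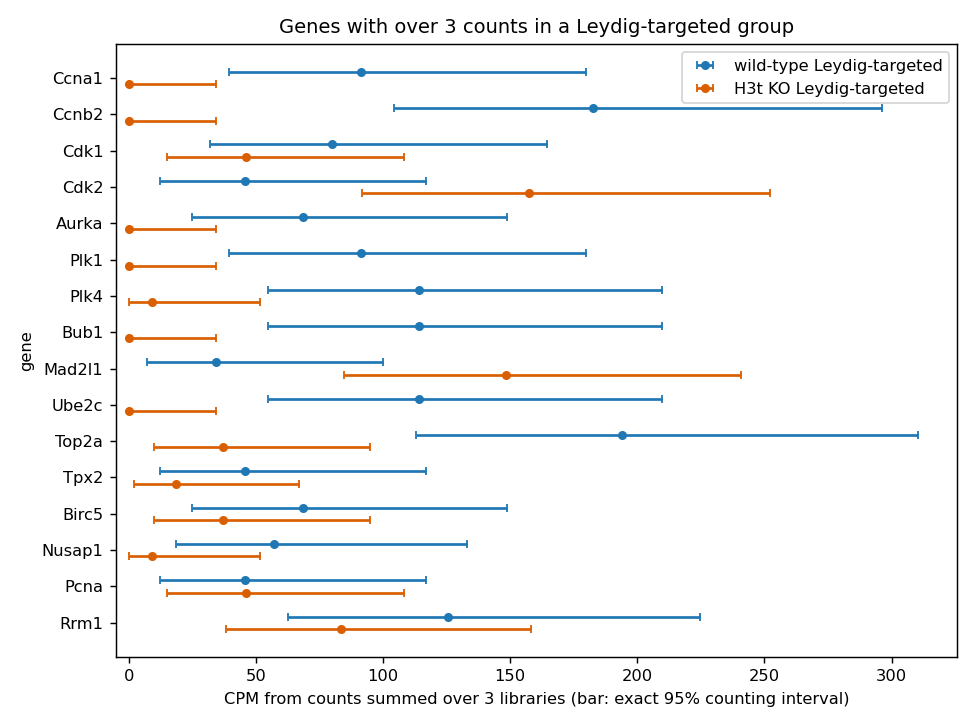
CPM from counts summed over the 3 Leydig-targeted libraries of each genotype (horizontal axis), for the 16 members with over 3 counts in either group, with exact 95% counting intervals as bars. Ccnb2 is at 183 CPM in wild type and 0 in knockouts, and Top2a at 194 and 37.1 CPM, while Cdk2 and Mad2l1 have the higher point in knockouts.

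Leydig-targeted libraries were also set against entire sections within each genotype. The same 11 members passed the same filter, so the shares called are again not a test of the members as a set. In wild type, 3 of 11 members tested were lower in the Leydig-targeted libraries (Cdk2, Aurka and Cenpe) and 0 higher, against a background of 12.4% lower and 3.22% higher of 5182 genes (edgeR's quasi-likelihood test). No member was higher at an unadjusted p under 0.05. DESeq2 called 1 lower (Cdk2) and 0 higher, against 7.7% and 4.28% of all genes. Cdk2 was at 36.4, 74.5 and 0 CPM there and at 159 to 327 CPM in sections, and was lower by -2.83 ± 0.80 (adjusted p = 0.00654). Its adjusted p was 0.0933 without wild-type section replicate 1, and 0.138 and 0.0504 without wild-type Leydig-targeted replicates 1 and 3. Aurka (adjusted p = 0.0393) and Cenpe (adjusted p = 0.0418) were not called by DESeq2, nor in 10 of the 12 fits that each left out 1 library. In 9 members all 3 Leydig-targeted libraries lay below all 3 sections (Aurka, Cdk2, Cenpe, Ccna2, Ccne1, Cdc20, Mcm2, Rrm2 and Tyms), where 20.25% of genes with a count did so. Apart from Aurka, Cdk2 and Cenpe these had no Leydig-targeted count. Rrm1 was the one member whose 3 Leydig-targeted libraries (91.1, 149 and 336 CPM) all lay above the wild-type sections (60.01 to 67.0 CPM), where 2.06% of genes did so. It rested on 5, 4 and 2 counts and was not called (0.45 ± 0.66, adjusted p = 0.674), with estimates of -0.85 when scaled to Leydig markers and -0.27 with no filter.

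In knockouts, 1 of 11 members was higher in Leydig-targeted libraries and 0 lower, against 1.91% higher and 3.53% lower of all genes. DESeq2 also called 1 and 0, against 2.8% and 3.92%, and 1 member was lower at an unadjusted p under 0.05. In 17 of 35 members with a count, all 3 Leydig-targeted libraries lay below all 3 sections, where 19.91% of genes did so, and in 0 members they lay above, where 3.297% did. All of the 17 except Cenpa had no count in the Leydig-targeted libraries, which at this depth allows up to 34.19 CPM. The higher gene by the test was Mad2l1, at 113, 252 and 0 CPM against 27.3, 30.6 and 28.0 CPM in sections (2.13 ± 0.66, adjusted p = 0.0321). The library at 0 means that the groups overlapped. With the replicate number as a block the adjusted p was 0.0607, and without knockout Leydig-targeted replicate 2 it was 0.4525. Leaving out 6 other libraries in turn also ended the call, with adjusted p from 0.0516 to 0.107.

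The genotype difference itself was compared between the irradiated regions by an interaction term. Of 11 members 0 were called in either direction, against 0.193% of all genes higher and 0.135% lower (edgeR's quasi-likelihood test). DESeq2 also called 0, against 0.637% and 0.521%, and 1 member, Mad2l1, had an unadjusted p under 0.05 in both tools (2.56 ± 1.13, adjusted p = 0.374). The SE of the term, worked back from the test, ran from 0.66 to 3.25 on the log2 scale. It is only a rough guide where a group had no count. Differences between regions could have gone undetected at this depth.

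Further genes of the cell cycle were read from 3 lists that held none of the 36. They went through the same filters, which can admit a gene only through the genotype in which it is higher. The shares of list genes called are therefore not a test of a list. Of 62 other mitosis genes counted, 20 were tested with all libraries, and 15 were lower and 2 higher in knockout sections, where 39.1% and 22.6% of all genes were. The list's median was -2.01, against -0.35 over all genes. The lowest adjusted p values were those of Cdca2, which targets a phosphatase to chromatin (fell by 4.37 ± 0.53), Nuf2 of the outer kinetochore (fell by 4.32 ± 0.57) and Cdca3, an adaptor in mitotic entry (fell by 3.41 ± 0.53). The 2 higher were the tubulins Tuba1b (1.27 ± 0.47, adjusted p = 0.0131) and Tubb5 (1.15 ± 0.44, adjusted p = 0.0166), whose estimates were -1.03 and -1.20 when scaled to Leydig markers. With the 6 section libraries alone, 24 of 37 tested were lower and 4 higher, against 36% and 30.2% of all genes. Scaled to Leydig markers, 35 of 37 were lower and 0 higher, against 85.2% and 0.354%. The median of the list in that fit was -1.66, against -0.04 over all genes tested.

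Of 33 other replication genes counted, 6 were tested with all libraries and all 6 were called lower, against 39.1% of all genes, among them Gins1 and Gins4 of the GINS complex, which joins MCM in the active helicase (fell by 5.10 ± 0.55 and 1.51 ± 0.44), and Slbp, which binds histone messenger RNA (fell by 2.28 ± 0.45). With the section libraries alone 6 of 11 tested were lower and 0 higher, against 36% and 30.2%. Because of the filter, neither share is a test of the list. With library size alone as the scale 3 of the 6 and 4 of the 11 were lower, against 32.9% and 32.8%. Of 6 G1 regulators tested with all libraries, 3 were lower and 1 higher, which is near the shares over all genes (39.1% and 22.6%). Skp2, the ubiquitin ligase subunit that removes p27, fell by 4.36 ± 0.57, Cdkn2c, the inhibitor p18, fell by 2.81 ± 0.46, and E2f4, a repressor, fell by 1.17 ± 0.43. Ccnd2, a D-type cyclin, rose by 1.31 ± 0.50 (adjusted p = 0.0162), with an estimate of -1.07 when scaled to Leydig markers. In the section fit 3 of 12 were higher (Ccnd2, Rb1 and Cdk4) and 5 lower, again near the shares over all genes (30.2% and 36%). On the Leydig scale 0 were higher and 11 lower, against 0.354% and 85.2%.

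In Leydig-targeted libraries, 4 of 20 other mitosis genes tested were lower in knockouts and 1 higher, no more than the 20.9% and 7.55% of all genes. Replication genes and G1 regulators, with 1 of 6 lower and 0 higher each, were also not above those shares. The centrosomal kinase Nek2 (adjusted p = 0.000388), Cdca3 (adjusted p = 0.00198) and the condensin subunit Smc4 (adjusted p = 0.0131) were lower. The higher gene was Zwint of the kinetochore (2.42 ± 0.95, adjusted p = 0.0409), with 0 higher under either marker scale. The replication gene was Slbp (adjusted p = 0.0421) and the G1 regulator was Skp2 (adjusted p = 0.00406).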

How the data were processed

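Per the labels' protocols, 10 µm testis sections were made into libraries by photo-isolation chemistry. The authors deposited 1 table of raw, whole-number counts per gene for 12 libraries, with no normalization. The submitters' processing notes name GRCm38, featureCounts, HISAT2, Trim Galore and UMI-tools, and the sources used here give no version, order or strand setting. All 36 genes matched GENCODE vM21; promoters are from RefSeq.

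Counts were tested with edgeR 4.0.16 in R 4.3.3: robust quasi-likelihood test, TMM scaling with full library totals, 1 coefficient per group, expression filter with a minimum count of 10 (66.1 CPM for 12 libraries, 23.0 CPM for 6 sections, 301 CPM for 6 Leydig-targeted), Benjamini-Hochberg adjusted p under 0.05. DESeq2 1.42.0, other scalings, no filter, a minimum count of 3, a replicate block and leaving out each library were alternatives; those of the section fit were added after seeing the data. Intervals of summed counts are exact at 95%. Scripts were tested on simulated data.

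Members and lists were chosen with earlier results of these data known. Pathway genes are named by a rule: up to 3 higher and 3 lower per list with the smallest adjusted p in the fit of all libraries. Same-numbered sections deviated together across genes (correlations of 0.252, 0.175 and 0.202), so numbers may pair sections, and that pairing comes from the data alone. The main fits did not use it, and the replicate block was run only as an alternative. Leydig-targeted pairs did not (-0.0107, 0.00963 and -0.00855).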

Additional observations from a re-analysis of the deposited data

How the results depend on the processing

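The 7 members called lower in knockout sections with all 12 libraries were 7 in number in each leave-one-out fit, by DESeq2, with its size factors, library size alone, library totals over tested genes only and the replicate block. They were 11 under Leydig scaling and 11 under Sertoli scaling, 15 with no filter, 17 with a minimum count of 3 and 13 with the 6 section libraries, where 1 was higher instead of 0. In the section fit the 13 lower became 24 (Leydig scale) and 20 (Sertoli scale), with 12 to 14 when each library was left out. The 1 higher became 0 by DESeq2, on both marker scales and with no filter, 2 with a minimum count of 3, and 0 to 1 across leave-outs. The replicate block gave 13 lower and 1 higher there.

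In Leydig-targeted libraries the 5 lower became 9 on the Leydig scale, 1 with no filter, 0 with those 6 libraries alone (no member tested), and 1 to 5 across leave-outs, where the 0 higher became 0 to 1. Between regions in wild type, the 3 lower became 1 by DESeq2, with DESeq2 size factors, library size alone, 6 libraries, the replicate block and library totals over tested genes only, 9 and 0 on the Leydig and Sertoli scales, 7 with no filter, and 0 to 3 across leave-outs. In knockouts the 1 higher became 0 on the Leydig scale (with 1 lower), with no filter, a minimum count of 3, 6 libraries, the replicate block and library totals over tested genes, and 0 to 1 across leave-outs. The interaction gave 0 under each alternative. The replicate block ended the region calls of Aurka (adjusted p = 0.06675), Cenpe (0.0571) and Mad2l1 (0.0607) and changed no other count of members by over 1.5 times.

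On the Leydig and Sertoli scales the section estimates that were above 0 turned, to -2.14 and -0.92 for Cenpa, -2.51 and -1.30 for Tpx2, -1.57 and -0.34 for Mcm3, -2.61 and -1.39 for Mcm5, -2.12 and -0.90 for Mcm6 and -2.20 and -0.98 for Pcna. With no filter Tpx2 was at -0.01338 and Mcm5 at -0.08865, and Cdk2 was at 0.07001 under library size alone. Leaving out 1 library turned 8 estimates of members not called, with ranges of -0.56 to 0.05585 for Cdk2, -0.20 to 0.55 for Tpx2, -0.40 to 0.33 for Mcm5 and -0.12 to 0.71 for Pcna. In Leydig-targeted libraries Cdk2 was at -0.18 on the Leydig scale, and the region estimate of Rrm1 in wild type at -0.85 there and -0.27 with no filter. The log2 ratio of summed levels in sections, -1.03 as CPM, was -4.05 per Leydig and -2.81 per Sertoli marker counts (-1.15 to -0.843 across leave-outs). In Leydig-targeted libraries -1.63 became -3.41 and -2.78 (-2.43 to -1.16). The cause of each change was not tested.

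Scaling moved all genes. Against TMM, the median of all genes in the section fit shifted by -2.72 on the Leydig scale, -1.48 on the Sertoli scale and 0.249 under library size alone. Of all genes, 1170 were higher and 2024 lower in sections with 12 libraries, 1642 and 1759 by DESeq2, 1631 and 1762 with DESeq2 size factors, 1861 and 1707 under library size alone, 10 and 4182 on the Leydig scale and 187 and 3016 on the Sertoli scale. The section fit gave 2390 and 2848, or 28 and 6734 (Leydig scale) and 350 and 4927 (Sertoli scale). In Leydig-targeted libraries 391 and 1085 became 544 and 892 by DESeq2, and between regions in wild type 167 and 642 became 222 and 399. Depth limits the Leydig-targeted comparison: 15 of 36 members in wild type and 7 in knockouts had over 3 counts in the group.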
